A study of Mus musculus with 3 samples.

Results

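Genes of DNA replication and cell division were followed in organoids grown from mouse small intestine, as a set of 40 genes chosen by name among the 23271 genes of the merged count table. Of these, 18 act before or during DNA synthesis (called S-phase members here), 20 act from late S phase through mitosis (mitotic members), and 2 are D cyclins, Ccnd1 and Ccnd2. All 40 were measured in each of 3 libraries and all 40 had enough counts to be compared.

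The study isolated crypts of C57BL/6 mice of both sexes, aged 3 to 6 months, and the organoids of these libraries came from 1 donor. Cells were first enriched for LGR5+ stem cells in medium with CHIR99021 and valproic acid, with Y-27632 at the start, and were then kept for 6 days in 1 of 3 media. ENR is named for the growth factors in all 3 media, which were 50 ng/mL of EGF, 100 ng/mL of Noggin and 500 ng/mL of R-spondin 1. ENR+CD added 3 µM of CHIR99021, a GSK3 inhibitor that drives Wnt signaling, and 10 µM of DAPT, which blocks Notch through gamma-secretase. ENR+CV added CHIR99021 at 3 µM and valproic acid at 1 mM, a histone deacetylase inhibitor. Organoids of 6 wells per condition were dissociated onto 1 Seq-Well array, where each cell shares a nanowell with a barcoded bead that captures its mRNA. There was 1 library per condition, so the condition and the array cannot be told apart, no test between conditions was made, and every interval given is a 95% interval that covers counting error only.

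The kept cells (1000 to under 8000 unique molecular identifiers, UMIs, and at least 400 genes) numbered 2545 in ENR, against 2383 in ENR+CD and 985 in ENR+CV, with 5095089, 4538388 and 2942252 UMIs. The median cell had 1553, 1543 and 2499 UMIs. Mitochondrial genes took 16.5%, 8.67% and 3.89% of the UMIs, and the alpha-defensin (Defa) genes of Paneth cells took 2.93%, 10.6% and 0.365%. The 6 epithelial markers summed to between 3848 and 3967 counts per 1000000 UMIs of a library (CPM). Of 7 immune markers 5 were measured, and they summed to 53.0 CPM in ENR, against 234 in ENR+CD and 11.6 in ENR+CV. Most of these were UMIs of Lyz2, a macrophage lysozyme close in sequence to Lyz1 of Paneth cells (256, 1048 and 26 UMIs), while Ptprc, the pan-leukocyte marker, had at most 2 UMIs and Cd3e 0. The 7 markers of stroma and endothelium summed to 36.7, 68.3 and 252 CPM, most of it Vim (177, 301 and 727 UMIs), with Col1a1 at 0, 0 and 6 UMIs. Of 4 red blood cell markers 1 was measured, with 1 UMI in ENR. The 5 stem cell markers summed to 1468 CPM, 619 and 1755 in the order ENR, ENR+CD and ENR+CV. Markers of mature epithelial cells also moved with the libraries, with 5857, 42224 and 1965 CPM for 5 Paneth genes other than Defa, 3141, 6950 and 494 for 5 goblet genes, 1802, 4313 and 126 for 8 enteroendocrine genes and 3907, 767 and 1763 for 11 enterocyte genes. The part of all these marker lists in the results below was not tested beyond the splits given. ENR and ENR+CD shared 1 cell barcode, and the other pairs shared 0. The conditions follow the names in the merged table. For ENR+CD and ENR+CV, the table of each sample lists cells that carry the other's name in the merged table, and if those tables were followed instead, every ENR+CD and ENR+CV value below would be exchanged. The numbers of cells that the study gives per condition go with the names of the merged table, and the Defa share is highest in the library that table names ENR+CD.

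Cells copy their genome once per cycle. In G1, D cyclins with CDK4 or CDK6 phosphorylate the retinoblastoma proteins and free the E2F factors, which turn on the genes of replication. The MCM helicase is loaded onto origins with CDC6 and CDT1, is started in S phase, and unwinds DNA ahead of polymerases held by the PCNA clamp. Later in the cycle, genes for cyclin B, the mitotic kinases and the spindle are switched on, many of them through CCAAT boxes and a short promoter element named the cell cycle genes homology region (CHR). In the intestine the dividing cells are the stem cells and progenitors of the crypt, while Paneth cells, enteroendocrine cells and mature enterocytes do not divide.

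The promoters of the members carried these elements to different extents. In the RefSeq windows of 250 bases before to 50 bases after each start (GRCm38.p6), 14 of the 18 S-phase and 15 of the 20 mitotic members had a sequence. E2F-like letters (TTTCCCGC, TTTCGCGC, TTTGCCGC or TTTGGCGC, both strands) were found at 6 of the 14 S-phase members, 1 of the 15 mitotic members and 2.61% of all 27025 genes with a window. CHR letters (TTTGAA or TTCGAA, both strands) were found at 3 S-phase members, 12 mitotic members and 21.7% of all genes. CCAAT, on either strand, was found at 10 S-phase members, 14 mitotic members and 41.1% of all genes. Both CHR and CCAAT letters stood in the windows of 12 of the 15 mitotic members against 8.61% of all genes. The same letters divided the related genes that are not members, with E2F-like letters at 14 of 36 other S-phase genes and 4 of 42 other mitotic genes, and CHR letters at 8 and 31. Matches are counts of letters, and binding of a factor was not measured.

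The 160 bases before the start are given for 2 helicase genes with E2F-like letters and 4 mitotic genes with CHR and CCAAT letters. They are examples that carry the letters, and the counts above include members without them. Each is written 5′ to 3′ on the strand of the gene, and capitals mark the E2F-like, CHR and CCAAT letters on either strand. Letters of different elements do not overlap in these stretches.
Mcm5, chr8:75109349-75109508, + strand: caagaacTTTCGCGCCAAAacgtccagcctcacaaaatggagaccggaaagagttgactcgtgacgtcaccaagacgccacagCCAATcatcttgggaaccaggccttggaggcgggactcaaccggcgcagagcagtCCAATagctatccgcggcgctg
Mcm6, chr1:128359706-128359865, - strand: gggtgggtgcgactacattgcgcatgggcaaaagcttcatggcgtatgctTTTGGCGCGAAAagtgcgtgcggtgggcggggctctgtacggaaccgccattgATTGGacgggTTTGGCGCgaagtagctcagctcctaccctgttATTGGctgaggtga
Cdk1, chr10:69352913-69353072, - strand: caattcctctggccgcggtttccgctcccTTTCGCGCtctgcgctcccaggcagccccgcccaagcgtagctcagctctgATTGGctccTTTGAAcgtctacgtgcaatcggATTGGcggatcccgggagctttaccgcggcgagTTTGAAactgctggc
Top2a, chr11:99024190-99024349, - strand: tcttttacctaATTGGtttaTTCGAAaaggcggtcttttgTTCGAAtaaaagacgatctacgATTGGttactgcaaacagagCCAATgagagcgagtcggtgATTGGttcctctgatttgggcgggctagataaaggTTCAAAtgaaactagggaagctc
Cdc20, chr4:118437344-118437503, - strand: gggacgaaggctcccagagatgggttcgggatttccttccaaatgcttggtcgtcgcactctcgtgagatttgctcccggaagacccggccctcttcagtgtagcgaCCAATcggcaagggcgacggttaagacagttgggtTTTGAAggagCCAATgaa
Ube2c, chr2:164769769-164769928, + strand: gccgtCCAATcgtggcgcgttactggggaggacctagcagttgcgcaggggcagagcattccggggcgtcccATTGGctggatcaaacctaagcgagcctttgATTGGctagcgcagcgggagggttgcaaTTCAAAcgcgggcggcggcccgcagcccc
In Mcm5 the E2F-like letters began 153 and 149 bases before the start, and in Mcm6 they began 110, 106 and 47 bases before it. The matches at 153 and 149 in Mcm5 overlap each other on opposite strands, as do those at 110 and 106 in Mcm6. Cdk1 held all of the elements, with E2F-like letters at 131 bases and CHR letters at 71 and 15 bases. The CHR letters began 23 bases before the start in Top2a (besides 140 and 120), 18 in Cdc20 and 29 in Ube2c.

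Replication and mitosis transcripts were lower in ENR+CD than in the other two libraries, which were within 1.12-fold of each other. Summed over the 18 S-phase members, the level was 1478 CPM in ENR (1445 to 1512), 835 in ENR+CD (809 to 862) and 1653 in ENR+CV (1607 to 1700). Summed over the 20 mitotic members, it was 2295 CPM in ENR (2254 to 2337), 1099 in ENR+CD (1068 to 1130) and 2425 in ENR+CV (2369 to 2482). ENR+CD was thus 1.77-fold (1.70 to 1.84) below ENR for the S-phase sum and 2.09-fold (2.02 to 2.16) for the mitotic sum. In sums over cells, fewer dividing cells and less RNA per dividing cell cannot be told apart. The members made up 0.424% of all UMIs in ENR, against 0.229% in ENR+CD and 0.475% in ENR+CV.

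A gene was called lower or higher where its CPM differed at least 2-fold between a pair of libraries with separate Poisson intervals. In ENR+CD against ENR, 20 of 40 members were called lower and 0 higher, where 9.35% of the 12197 genes tested were called lower and 10.8% higher. The 20 were 6 of 18 S-phase, 14 of 20 mitotic and 0 of 2 D cyclin members. The ratio itself was below 1 for all 40, with an interval below 1 for 39, the exception being Ccne1, where 28.6% of all genes tested had an interval below 1. The median member stood at 0.499 times ENR, beside 0.995 times for the median of all genes tested. In ENR+CD against ENR+CV, 28 members were called lower and 0 higher, where 18.9% and 7.1% of all genes tested were. Both comparisons use the same ENR+CD library.

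In ENR+CV against ENR, 0 members were called lower and 1, Ccne1, was called higher, where 5.8% and 15.9% of the 11962 genes tested were. The median gene of all those tested lay 0.35 higher in ENR+CV on the log2 scale, and the median member lay 0.19 higher. Relative to that median gene, 27 members were lower and 13 higher. The direction of the sums in ENR+CV thus rests on the scaling. Per total UMIs the S-phase sum was 1.12 times and the mitotic sum 1.06 times that of ENR, and with libraries scaled by the median of gene ratios they were 0.867 and 0.819 times. The mitochondrial share, 16.5% in ENR and 3.89% in ENR+CV, moved with this comparison, and outside the mitochondrial genes the ratios were 0.972 and 0.918.

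**Figure D1:**
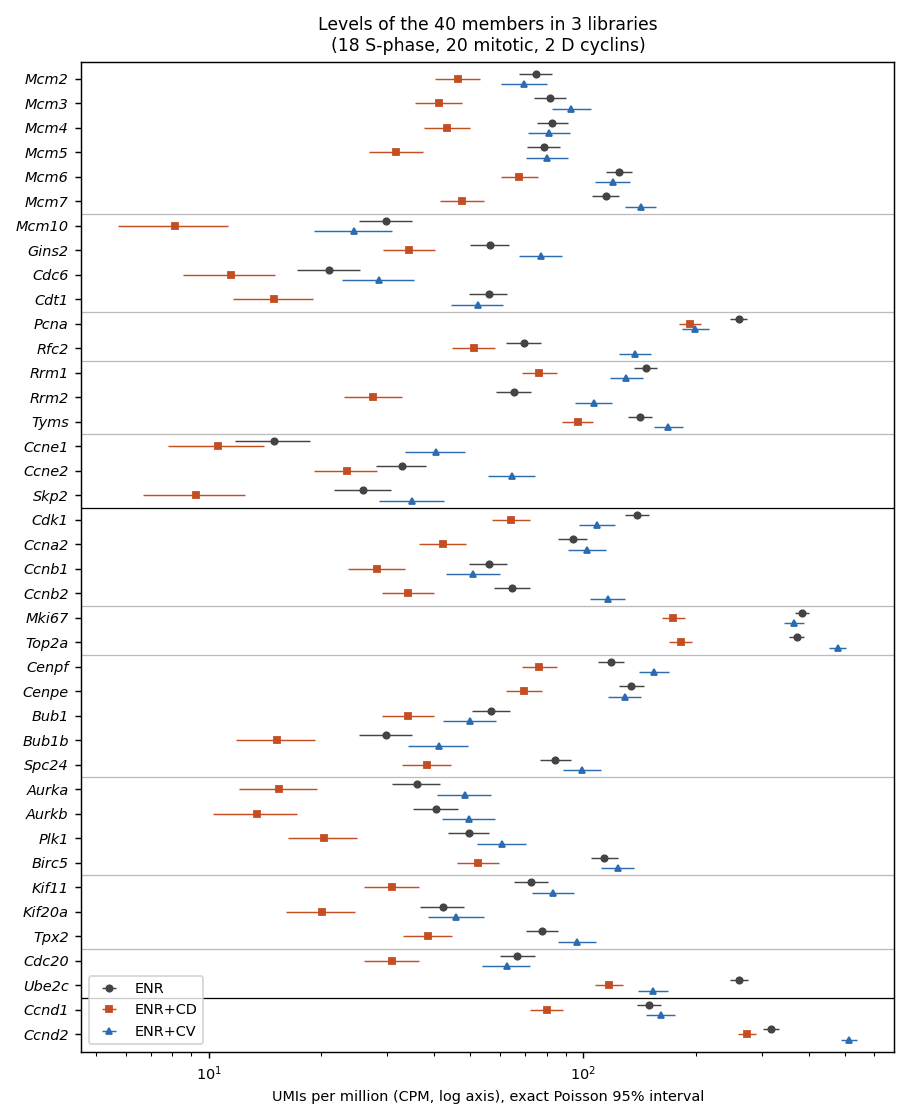
Level of each of the 40 members in the 3 libraries, as CPM on a log axis with exact Poisson 95% intervals. Thin lines part the groups of members and black lines the S-phase, mitotic and D cyclin members. The ENR+CD point lies to the left of the ENR point for all 40 members.

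The 6 subunits of the MCM helicase, which unwinds DNA at replication forks, were lower together in ENR+CD. Their sum was 558 CPM in ENR, against 278 in ENR+CD and 587 in ENR+CV, which is 2.01-fold (1.88 to 2.15) lower in ENR+CD than in ENR. Mcm5 stood at 78.5 CPM in ENR, against 31.7 in ENR+CD and 80.2 in ENR+CV, 2.47-fold (2.04 to 3.01) lower in ENR+CD. Mcm7 stood at 115 CPM, 47.6 and 143 in the same order, 2.42-fold (2.06 to 2.84) lower in ENR+CD. These were the subunits past the 2-fold limit against ENR, and the other 4 were below ENR by 1.62-fold to 1.99-fold. Mcm3 stood at 81.8, 41.2 and 93.1 CPM, 1.99-fold (1.67 to 2.37) below ENR and 2.26-fold (1.87 to 2.74) below ENR+CV. Mcm6, the subunit with most UMIs, stood at 125, 67.6 and 120 CPM. Mcm2 and Mcm4 were 1.62-fold (1.36 to 1.92) and 1.91-fold (1.61 to 2.27) lower in ENR+CD than in ENR.

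The genes that load and start the helicase held the members with the highest ratios of ENR to ENR+CD. Cdt1, which brings MCM to origins, stood at 55.9 CPM in ENR, against 15.0 in ENR+CD and 52.3 in ENR+CV, 3.73-fold (2.86 to 4.94) lower in ENR+CD than in ENR. Mcm10, which helps to start the loaded helicase, stood at 29.8, 8.15 and 24.5 CPM, 3.66-fold (2.54 to 5.39) lower. In both genes ENR and ENR+CV had overlapping intervals and ENR+CD stood apart. Gins2, a subunit of the active helicase, stood at 56.3, 34.4 and 77.2 CPM, and was past the limit against ENR+CV only, by 2.24-fold (1.82 to 2.77). Cdc6, which loads MCM with CDT1, stood at 21.0, 11.5 and 28.6 CPM, likewise past the limit against ENR+CV only (2.49-fold, 1.74 to 3.59).

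The clamp and clamp loader were the S-phase group with the smallest difference between ENR+CD and ENR, 1.35-fold (1.25 to 1.46) for the sum. Pcna, the sliding clamp, stood at 260 CPM in ENR, against 193 in ENR+CD and 200 in ENR+CV. It was the only member whose ratio of ENR+CV to ENR+CD had an interval that held 1 (1.03, 0.929 to 1.15). Rfc2, a subunit of the complex that loads the clamp, stood at 69.5, 51.1 and 138 CPM, with ENR+CV 1.99-fold (1.72 to 2.30) above ENR. Among the genes of deoxynucleotide supply, Rrm2, the S-phase subunit of ribonucleotide reductase, stood at 65.4, 27.5 and 107 CPM, 2.37-fold (1.93 to 2.94) lower in ENR+CD than in ENR. Rrm1, the other subunit, stood at 147, 76.5 and 131 CPM, and Tyms, thymidylate synthase, at 142, 96.7 and 169 CPM. Rrm1 was 1.92-fold (1.69 to 2.19) and Tyms 1.46-fold (1.30 to 1.65) lower in ENR+CD, under the limit.

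The E cyclins, which drive entry into S phase with CDK2, were higher in ENR+CV than in ENR. Ccne1 stood at 14.9 CPM in ENR (11.8 to 18.7), 10.6 in ENR+CD (7.80 to 14.0) and 40.4 in ENR+CV (33.5 to 48.4). It was 2.71-fold (2.02 to 3.67) higher in ENR+CV than in ENR, while its ENR and ENR+CD intervals overlapped. Ccne2 stood at 32.8, 23.4 and 64.6 CPM, 1.97-fold (1.59 to 2.44) higher in ENR+CV than in ENR. Both E cyclins were thus highest in ENR+CV and lay above the median gene of that comparison. Of the members described above, so did Gins2, Cdc6, Rfc2 and Rrm2. Skp2, the substrate receptor of a ubiquitin ligase that marks the CDK inhibitor p27 for destruction, stood at 25.9, 9.25 and 35.0 CPM, 2.80-fold (1.96 to 4.06) lower in ENR+CD than in ENR.

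The cyclins of G2 and mitosis and their kinase were about 2-fold lower in ENR+CD. Cdk1, the kinase that starts mitosis, stood at 140 CPM in ENR, against 64.3 in ENR+CD and 109 in ENR+CV, 2.17-fold (1.89 to 2.50) lower in ENR+CD. Ccna2, cyclin A2, stood at 93.8, 42.3 and 103 CPM, 2.22-fold (1.87 to 2.64) lower. Ccnb2, a cyclin B, stood at 64.8, 34.2 and 117 CPM, and was 1.80 times (1.54 to 2.10) as high in ENR+CV as in ENR. Ccnb1, the other cyclin B, was 1.98-fold (1.60 to 2.46) lower in ENR+CD than in ENR and 0.911 times (0.743 to 1.11) as high in ENR+CV. The cyclins B thus differed in ENR+CV while both were lower in ENR+CD.

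Mki67, whose protein coats mitotic chromosomes and is used as a marker of proliferation, stood at 384 CPM in ENR (367 to 401), 174 in ENR+CD (162 to 187) and 366 in ENR+CV (345 to 389). Top2a, the topoisomerase that untangles sister chromatids, stood at 372 CPM (355 to 389), 182 (170 to 195) and 480 (455 to 505). ENR+CD was 2.20-fold (2.03 to 2.40) below ENR for Mki67 and 2.04-fold (1.88 to 2.22) for Top2a. ENR+CV was close to ENR for Mki67, at 0.954 times (0.884 to 1.03), and above it for Top2a, at 1.29 times (1.20 to 1.38), where the median of all genes tested was at 1.28 times. Of the kinetochore and checkpoint genes, Spc24, a subunit of the NDC80 complex, stood at 84.4, 38.3 and 99.6 CPM, 2.20-fold (1.84 to 2.64) lower in ENR+CD than in ENR. Cenpf, a kinetochore protein, stood at 119, 76.5 and 155 CPM, and Bub1b, a checkpoint kinase, at 29.8, 15.2 and 41.1 CPM. Cenpf and Bub1b were past the limit against ENR+CV only, by 2.03-fold (1.76 to 2.34) and 2.70-fold (1.996 to 3.69). Cenpe and Bub1 were under it in both, at 1.93-fold (1.69 to 2.22) and 1.66-fold (1.36 to 2.03) below ENR.

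All 4 genes of the mitotic kinases and the chromosomal passenger complex were past the limit in ENR+CD against ENR and against ENR+CV. Aurkb, the kinase of that complex, stood at 40.4 CPM in ENR, against 13.4 in ENR+CD and 49.6 in ENR+CV, 3.01-fold (2.25 to 4.07) lower in ENR+CD than in ENR, the highest ratio of a mitotic member. Birc5 (survivin), its partner, stood at 114, 52.4 and 124 CPM, 2.17-fold (1.87 to 2.54) lower. Plk1, a kinase of many mitotic steps, stood at 49.5, 20.3 and 60.8 CPM, 2.44-fold (1.91 to 3.13) lower. Aurka, the kinase of spindle poles, stood at 35.9, 15.4 and 48.3 CPM, 2.33-fold (1.76 to 3.11) lower. In each of these the ENR+CD interval lay apart from both other libraries.

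The 3 genes of the spindle were also past the limit in both comparisons. Kif11, the motor that pushes spindle poles apart, stood at 72.8, 30.8 and 83.3 CPM in ENR, ENR+CD and ENR+CV. Kif20a, a motor of cytokinesis, stood at 42.2, 20.1 and 45.9 CPM, and Tpx2, which activates Aurora A on the spindle, at 77.9, 38.6 and 96.5 CPM. They were 2.36-fold (1.94 to 2.89), 2.10-fold (1.64 to 2.72) and 2.02-fold (1.69 to 2.43) lower in ENR+CD than in ENR. Of the genes that act with the anaphase-promoting complex, the activator Cdc20 stood at 66.7, 30.8 and 62.5 CPM, 2.16-fold (1.77 to 2.65) lower in ENR+CD than in ENR. Ube2c, its ubiquitin-conjugating enzyme, stood at 261, 117 and 154 CPM, 2.22-fold (2.01 to 2.46) lower in ENR+CD. Ube2c was the member furthest below ENR in ENR+CV, at 0.590 times (0.529 to 0.657). Together with Pcna, at 0.766 times (0.694 to 0.845), and Cdk1, at 0.781 times (0.682 to 0.892), it made up the 3 members whose ENR+CV interval lay below ENR, whereas 18 had an interval above it. Of all genes tested, 12.7% had an interval below ENR and 45.9% one above it, so the share of members above it was near that of all genes.

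The D cyclins, which link growth signals to the cycle, were under the limit against ENR. Ccnd1 stood at 150 CPM in ENR, against 80.0 in ENR+CD and 161 in ENR+CV, 1.88-fold (1.65 to 2.13) lower in ENR+CD than in ENR. Ccnd2 stood at 317, 275 and 514 CPM, 1.15-fold (1.07 to 1.24) lower in ENR+CD than in ENR, and 1.62 times (1.51 to 1.74) as high in ENR+CV as in ENR. Of all 40 members, Ccnd2 differed least between ENR+CD and ENR.

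**Figure D2:**
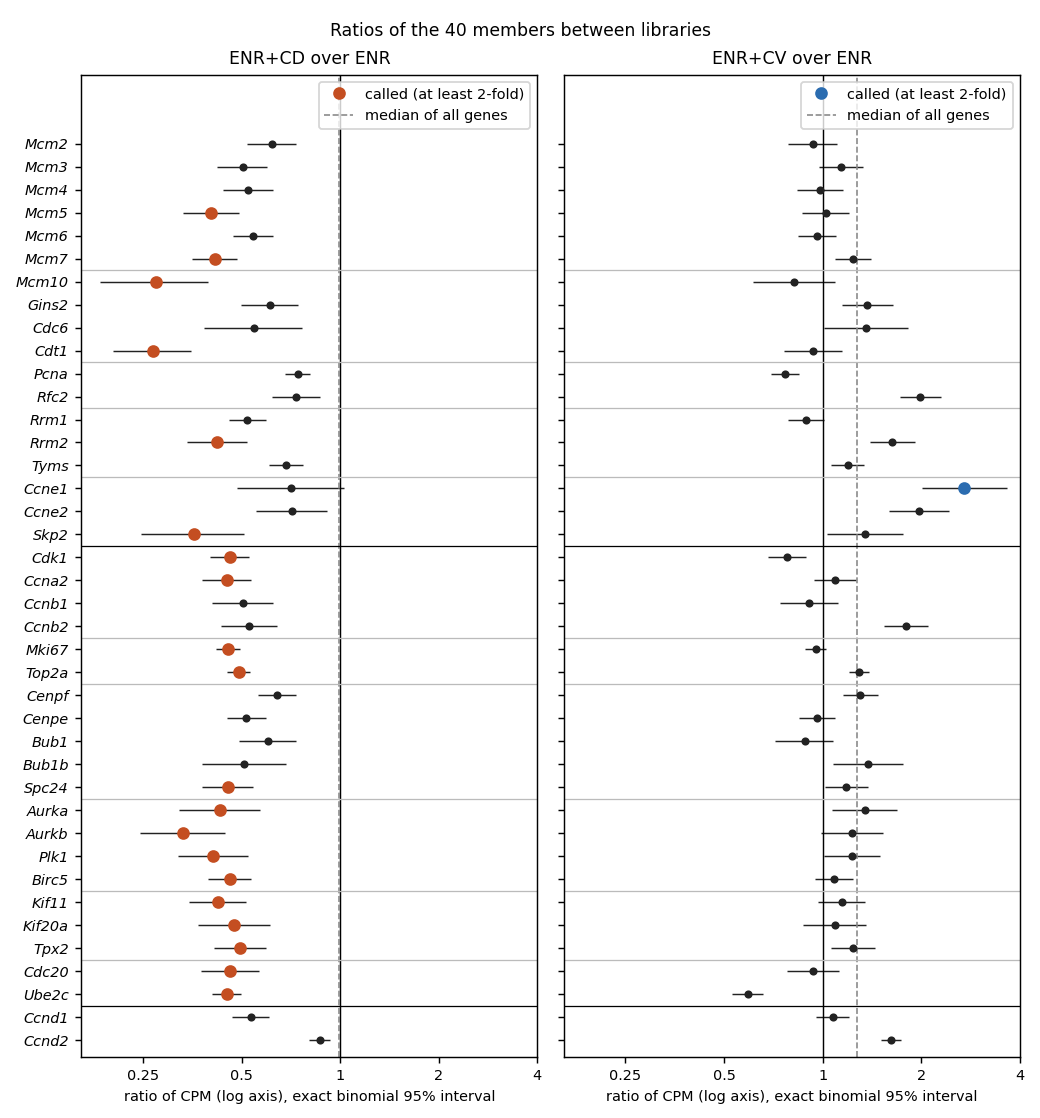
Ratio of each member's CPM in ENR+CD (left) and ENR+CV (right) to ENR, on a log axis with exact binomial 95% intervals, with members called at least 2-fold in colour, a solid line at 1 and a dashed line at the median of all genes tested. On the left all 40 ratios lie below 1 and 20 are called, while on the right they scatter on both sides of the median gene and 1, Ccne1, is called.

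The S-phase members were less far below ENR than the mitotic members in ENR+CD. There were 0.644 S-phase UMIs per mitotic UMI in ENR (0.626 to 0.663), 0.760 in ENR+CD (0.728 to 0.793) and 0.682 in ENR+CV (0.657 to 0.707), a ratio that does not depend on the total a library is scaled to. Pcna carried part of this. Without the member with most UMIs of each list, Pcna and Top2a, the ratio was 1.11 times that of ENR in ENR+CD in place of 1.18 times, and 1.18 times in ENR+CV in place of 1.06 times.

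Genes of the same processes that are not members were read from lists of 46 other S-phase genes, 50 other mitotic genes and 15 G1 regulators. In ENR+CD against ENR, 18 of the 46 and 24 of the 50 were called lower and 0 of either were called higher, and the median log2 ratios were -0.94 and -0.97. Among all genes tested there, 9.35% were called lower and 10.8% higher. In ENR+CV against ENR, 2 of the 46 were called higher, Rfc3 (2.41 times, 2.10 to 2.77) and Rpa1 (2.19 times, 1.81 to 2.65), and of the 50, Cdc25b was called higher and Tubb4b lower. These calls stand beside 15.9% of all genes tested called higher and 5.8% called lower in that comparison. The lowest ratio of the other S-phase genes was that of Tk1, thymidine kinase, at 76.3 CPM in ENR, against 21.2 in ENR+CD and 45.5 in ENR+CV. Next were Pole, a polymerase subunit, at 30.8, 10.6 and 28.2 CPM, Chaf1a, a histone chaperone, at 37.1, 12.8 and 42.8 CPM, and E2f8, a repressor of E2F targets, at 25.5, 9.03 and 22.8 CPM. These were 2.82-fold to 3.61-fold lower in ENR+CD than in ENR. At the other end Rfc1 was higher in ENR+CD than in ENR, at 125 against 110 CPM, and Slbp (51.8 against 54.2 CPM), Rfc3 (62.4 against 69.1) and Pold3 (47.2 against 53.0) were within 1.12-fold of it.

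Among the other mitotic genes the lowest ratios in ENR+CD were those of Ckap2l, Nek2, Kif2c and Racgap1, which act at spindles, centrosomes, kinetochores and the cleavage furrow. Ckap2l stood at 48.3 CPM in ENR, against 15.4 in ENR+CD and 53.4 in ENR+CV, 3.13-fold (2.39 to 4.14) lower in ENR+CD than in ENR. The other 3 were 3.08-fold (2.07 to 4.68), 3.02-fold (2.07 to 4.51) and 2.86-fold (2.29 to 3.61) lower. Pttg1 (securin) and Cdc25b were the only mitotic genes of that list above ENR in ENR+CD, at 43.6 against 36.5 CPM and 16.5 against 14.5 CPM, with ratio intervals that held 1. Cks1b and the histone H2afz were both 1.20-fold lower, under the limit.

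The G1 regulators and CDK inhibitors did not move as one list. In ENR+CD against ENR, 3 of 15 were called lower, 2 higher and 10 neither, where 9.35% of all genes tested were called lower and 10.8% higher. Cdkn1c (p57), a CDK inhibitor, stood at 27.9 CPM in ENR (23.5 to 32.8), 97.4 in ENR+CD (88.5 to 107) and 48.9 in ENR+CV (41.3 to 57.6), so ENR+CD was the highest and ENR the lowest. Cdkn2a was also called higher in ENR+CD, from 5 UMIs in ENR and 18 in ENR+CD (0.981 and 3.97 CPM). Called lower were Myc, at 102 CPM in ENR, against 41.6 in ENR+CD and 93.1 in ENR+CV, Rb1, at 18.8, 8.15 and 10.9 CPM, and Rbl1, at 35.1, 15.6 and 44.5 CPM. Cdk2 stood at 34.0, 21.2 and 40.4 CPM, and Cdk6 and Rbl2 were within 1.01-fold of ENR in ENR+CD.

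The remaining CDK inhibitors had no common direction either. Cdkn1a (p21) stood at 139 CPM in ENR, against 116 in ENR+CD and 209 in ENR+CV, and Cdkn1b (p27) at 84.6, 90.8 and 142 CPM. Cdkn2b was the only inhibitor called lower in ENR+CV against ENR, at 19.6, 14.3 and 7.48 CPM. Cdkn2c stood at 12.8, 7.49 and 19.4 CPM and Cdkn2d at 11.4, 8.15 and 22.4 CPM. In ENR+CV 5 of the 7 inhibitors (Cdkn1a, Cdkn1b, Cdkn1c, Cdkn2c and Cdkn2d) stood at 1.51 to 1.97 times ENR without a call, beside the median gene at 1.28 times.

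The level of the members was then followed with the Defa share of a cell, the percent of its UMIs on the 13 Defa genes, as a measure of Paneth cell transcripts. Levels are given as CPM outside Defa, the counts per 1000000 UMIs that are not on Defa genes, since Defa UMIs fill the total of a Defa-rich cell. In ENR+CD, the S-phase level was 987 CPM outside Defa in the 290 cells of a Defa share under 1% (918 to 1061), 1058 at 1 to under 5%, 1032 at 5 to under 10%, 933 at 10 to under 20% and 485 in the 281 cells at 20 to under 40% (422 to 555). The mitotic level was 1378 (1295 to 1464), 1575, 1353, 1145 and 504 (439 to 575) in the same bins. Both levels thus showed no steady decline up to a Defa share of 10% and were lowest in the cells richest in Defa transcripts.

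In ENR, the S-phase level was 1631 CPM outside Defa in the 1305 cells of a Defa share under 1%, 1484 at 1 to under 5%, 1284 at 5 to under 10%, 1178 at 10 to under 20% and 745 in the 63 cells at 20 to under 40% (583 to 939). The mitotic level was 2487, 2311, 2368, 1831 and 828 (657 to 1031). Cells of 20% and over were 2.23-fold (1.77 to 2.85) lower in S-phase members and 3.06-fold (2.45 to 3.86) lower in mitotic members than cells under 1% in ENR. In ENR+CD the same differences were 2.05-fold (1.76 to 2.40) and 2.76-fold (2.39 to 3.21), with 286 and 290 cells. The median gene other than Defa was also lower in those Defa-rich ENR+CD cells, at 0.636 times the level under 1%. No such median was taken in ENR. The S-phase UMIs per mitotic UMI went from 0.717 (0.651 to 0.788) under 1% to 0.964 (0.795 to 1.17) at 20% and over in ENR+CD. In ENR+CV 959 of 985 cells were under 1%, so no trend with Defa was read there, and these cells stood at 1674 (S-phase) and 2455 (mitotic).

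**Figure D3:**
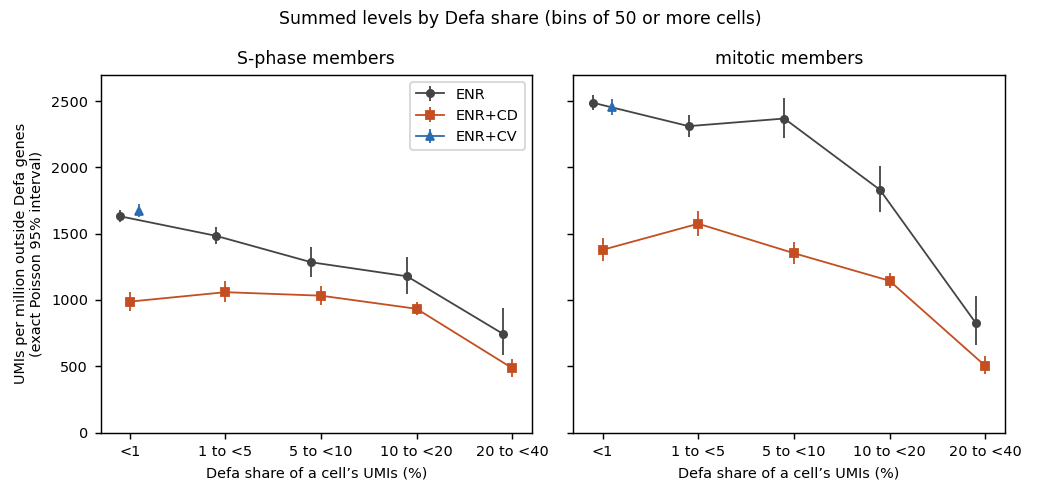
Summed level of the S-phase (left) and mitotic (right) members by the Defa share of a cell's UMIs, as CPM outside Defa with exact Poisson 95% intervals, in bins of at least 50 cells. Levels are lower in ENR+CD (orange squares) than in ENR (grey circles) in all 5 bins, and lowest at a Defa share of 20 to under 40%, where mitotic members stood at 504 and 828. The blue triangle is ENR+CV, which had 1 bin of at least 50 cells.

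At the same Defa share, ENR+CD stayed below ENR in all 5 of these bins. The S-phase level was 1.65-fold (1.53 to 1.79) lower under 1%, 1.40-fold at 1 to under 5%, 1.24-fold (1.11 to 1.39) at 5 to under 10%, 1.26-fold at 10 to under 20% and 1.54-fold (1.16 to 2.02) at 20 to under 40%. The mitotic level was 1.80-fold (1.69 to 1.93), 1.47-fold (1.37 to 1.58), 1.75-fold, 1.60-fold and 1.64-fold (1.26 to 2.13) lower. Cells of a Defa share of 10% and over made up 51.1% of ENR+CD cells and 8.45% of ENR cells. The 2 libraries thus differed both in how many cells passed each of these limits and in the level of the members at a given Defa share.

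Gene by gene in ENR+CD, the ratio of Defa-rich (20% and over) to Defa-poor (under 1%) cells had an interval below 1 for 10 of 18 S-phase, 15 of 20 mitotic and both D cyclin members, and above 1 for 0. Of the 7458 genes other than Defa with at least 20 UMIs in these cells, 39.1% had an interval below 1 and 2.87% one above it, and the median of their ratios was 0.636. Of the members, 34 had that many UMIs, 26 of them with an interval below 1. Mki67 stood at 69.6 CPM outside Defa in the Defa-rich and 221 in the Defa-poor cells, and Top2a at 89.8 and 222. Pcna stood at 135 and 200 and Ccnd2 at 238 and 364. Their ratios of 0.674 (0.491 to 0.915) and 0.654 (0.518 to 0.821) were near the median of 0.636 over all these genes. Kif20a had 0 UMIs in the Defa-rich cells against 22 in the Defa-poor cells, and Plk1 had 7 against 13, a ratio of 0.914 with an interval of 0.309 to 2.46. The number of genes found per cell was also lower in the Defa-rich cells, with a median of 623.5 against 1090, and the mitochondrial share was 4.90% against 10.7%. The part of these in the result was not tested. The choice of defensin genes bears on the size of the difference. With predicted defensin genes added to the share, 744 cells were at 20% and over, and the S-phase and mitotic ratios to the cells under 1% were 0.848 and 0.701, in place of 0.487 and 0.362.

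The level of the members was also read in cells with transcripts of enteroendocrine cells, a type that does not divide. Cells thinned to 1000 UMIs each were taken for this where at least 1% of those UMIs fell on 8 enteroendocrine genes. There were 76 such cells in ENR, against 182 in ENR+CD and 5 in ENR+CV. Per total UMIs they held 838 CPM of S-phase (707 to 987) and 1159 CPM of mitotic members (1003 to 1331) in ENR, and 568 (496 to 648) and 556 (484 to 634) in ENR+CD. The other cells of ENR were 1.79-fold (1.52 to 2.13) above them in S-phase and 2.01-fold (1.75 to 2.33) in mitotic members, and those of ENR+CD 1.51-fold (1.32 to 1.74) and 2.07-fold (1.81 to 2.38). The members were therefore found at an appreciable level in cells that carry the transcripts of this type. Whether some of the cells taken by this limit still divided was not tested. In ENR, 26 cells had at least 3% of the thinned UMIs on 11 enterocyte genes. These enterocyte-gene cells held less, with 472 CPM of S-phase (323 to 667) and 458 CPM of mitotic members (311 to 650). The 11 such cells of ENR+CV held 625 (371 to 988) and 1008 (675 to 1447), and the 2 of ENR+CD held 0 UMIs of either.

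The level in the enteroendocrine-gene cells was also lower in ENR+CD. Between the enteroendocrine-gene cells of ENR+CD and ENR the difference was 1.48-fold (1.19 to 1.83) for S-phase and 2.09-fold (1.71 to 2.54) for mitotic members, beside 1.77-fold and 2.09-fold over all cells. The part of this level in the difference between the libraries was not tested. Per total UMIs, Defa-rich cells (20% and over) held 352 CPM of S-phase (307 to 403) and 366 CPM of mitotic members (319 to 417) in ENR+CD. In ENR they held 523 (409 to 659) and 581 (461 to 723). On this shared scale, these intervals all lay below those of the enteroendocrine-gene cells of the same library. Outside Defa they held 481 (418 to 550) and 499 (435 to 569) in ENR+CD, and 732 (573 to 922) and 813 (645 to 1012) in ENR. Their intervals outside Defa overlapped those of the enteroendocrine-gene cells per total UMIs. The scales of that overlap are not the same, so a like level was not read from it. The overlap was narrowest for the mitotic members of ENR (645 to 1012 beside 1003 to 1331). How much of either level comes from RNA outside the cell or from mixed cells was not tested.

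Shares of cells were also lower in ENR+CD. After thinning, at least 2 S-phase UMIs were found in 38.7% of ENR cells (36.8 to 40.6), 20.9% of ENR+CD cells (19.2 to 22.5) and 40.1% of ENR+CV cells (37.0 to 43.2). At least 2 mitotic UMIs were found in 56.5% (54.6 to 58.4), 26.8% (25.0 to 28.6) and 45.8% (42.6 to 49.0). The enteroendocrine-gene cells had 27.6% (18 to 39.1) and 40.8% (29.6 to 52.7) in ENR, at a median depth of 1620.5 UMIs before thinning, and 14.3% (9.55 to 20.2) and 19.2% (13.8 to 25.7) in ENR+CD, at 1605 UMIs. In ENR+CV 0 of 5 such cells had either. The enterocyte-gene cells had 15.4% (4.36 to 34.9) and 15.4% (4.36 to 34.9) in ENR, and 27.3% (6.02 to 61.0) and 45.5% (16.7 to 76.6) in ENR+CV. Over all cells, the mitotic share was lower in ENR+CV than in ENR while the mitotic CPM was higher. No order of these libraries was therefore read from that share. Without thinning, the S-phase shares were 59.6%, 37.2% and 69.5% and the mitotic shares 73.4%, 40.9% and 68.4%.

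S-phase and mitotic UMIs went together in the same cells to a limited extent. Of the thinned cells with at least 2 mitotic UMIs, 41.7% had at least 2 S-phase UMIs in ENR (39.2 to 44.3), 28.3% in ENR+CD (24.9 to 32.0) and 47.0% in ENR+CV (42.3 to 51.7). Of the cells with no mitotic UMI, 30.6% (26.7 to 34.6), 16.3% (14.3 to 18.6) and 30.7% (25.6 to 36.1) had them. Cells with at least 2 UMIs of both lists were 23.6% of ENR, and cells with neither 28.4%.

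Splitting the thinned cells by Mki67 set the mitotic members apart from the others. A Mki67 UMI was found in 667 ENR, 308 ENR+CD and 259 ENR+CV cells, which are 26.2%, 12.9% and 26.3% of each, beside 11.8% and 6.04% of the enteroendocrine-gene cells of ENR and ENR+CD. The other mitotic members summed to 2483 CPM in cells with Mki67 and 1735 in cells without it in ENR, a ratio of 1.43 (1.35 to 1.52). They summed to 1815 and 802 CPM in ENR+CD (2.26, 2.05 to 2.49) and to 3405 and 1430 CPM in ENR+CV (2.38, 2.17 to 2.61). Mitotic members thus went with Mki67 in all 3 libraries, with the smallest ratio in ENR.

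The S-phase members followed Mki67 less. Their sum was 1.05 times (0.973 to 1.13) as high in cells with Mki67 in ENR, 1.47 times (1.31 to 1.65) in ENR+CD and 1.06 times (0.942 to 1.19) in ENR+CV. The D cyclins were at 1.03 times (0.901 to 1.18), 0.988 times (0.797 to 1.22) and 0.723 times (0.592 to 0.877). Member by member, an interval above 1 was found for 12, 14 and 16 of the other 19 mitotic members in ENR, ENR+CD and ENR+CV, for 0, 4 and 2 of 18 S-phase members, and for 0 of the D cyclins. Of all genes with at least 20 UMIs in the thinned cells, 4.45%, 5.78% and 4.71% had such an interval. In ENR+CV the highest ratios were those of Cenpf (3.61, 2.54 to 5.16), Tpx2 (2.95, 1.84 to 4.73) and Top2a (2.85, 2.36 to 3.45). Rrm1 (1.79, 1.22 to 2.61) and Rrm2 (1.63, 1.02 to 2.57) were the S-phase members with an interval above 1. Ccnd2 was lower in cells with Mki67 in ENR+CV (0.669, 0.529 to 0.839).

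**Figure D4:**
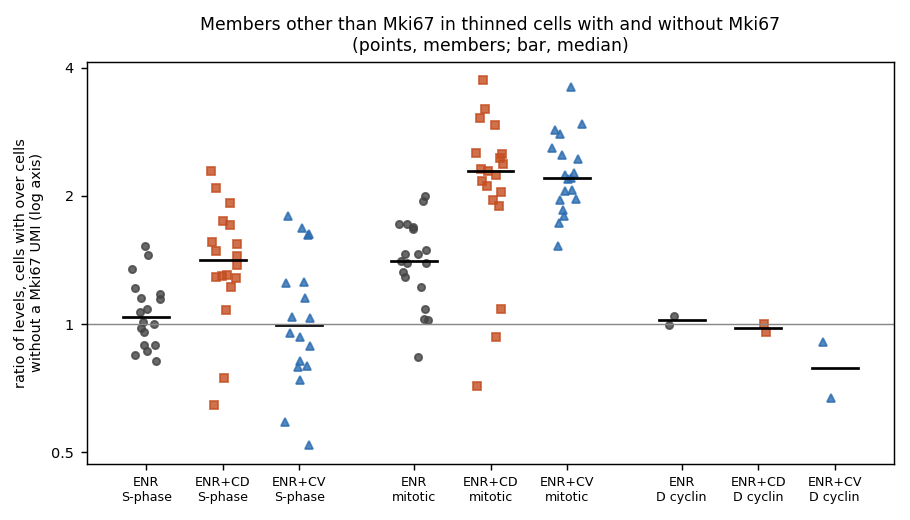
Ratio of each member's level in cells with a Mki67 UMI to that in cells without one, after thinning to 1000 UMIs per cell, on a log axis. Points are members and bars their medians, which lie at 1.41, 2.28 and 2.20 for the mitotic members of ENR, ENR+CD and ENR+CV and at 1.04, 1.41 and 0.993 for the S-phase members.

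Depth and mitochondrial share moved with the levels to some extent. In cells of 1000 to under 2000 UMIs the S-phase level was 1403 CPM in ENR, against 861 in ENR+CD and 1382 in ENR+CV, and in cells of 4000 to under 8000 UMIs it was 1688, 884 and 1833. ENR+CD was below ENR in each of 3 depth bins, from 1.63-fold (1.54 to 1.72) to 1.91-fold (1.74 to 2.09) for S-phase and from 1.94-fold (1.86 to 2.04) to 2.34-fold (2.16 to 2.54) for mitotic members. Within depth bins ENR+CV was 0.985 to 1.09 times ENR for S-phase and 0.995 to 1.05 times for mitotic members, nearer to ENR than over all cells. In ENR+CV the S-phase level outside mitochondrial genes was 1.42 times (1.29 to 1.55) as high in the 711 cells of a mitochondrial share under 5% as in the rest, and the mitotic level 1.08 times (1.01 to 1.16). The part of depth and mitochondrial share in the differences between libraries was not tested.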

How the data were processed

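Organoid cells of 3 conditions were measured by Seq-Well, 1 library each. The deposited merged table, made by the authors, holds raw UMI counts per gene and cell, for cells of more than 1000 UMIs. Per the submitters' processing notes, bcl2fastq, STAR and Seurat were used with mm10. For the versions of these tools and for the annotation, the answer is not given in the sources used here. Reads from near-identical copies such as pseudogenes cannot be traced in these counts, and read tables were not used here.

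From the counts, UMIs were summed over the kept cells of a library and scaled to 1000000 (CPM), with exact Poisson 95% intervals, and ratios and shares had exact binomial (Clopper-Pearson) 95% intervals, which cover counting error only. Genes with at least 20 UMIs in a pair were compared, and the calls of all genes gave the background. For shares, each cell was thinned to 1000 UMIs (seed 11). Cells of 8000 or more UMIs were left out, and no doublet caller was run. The call rule was tested on simulated data. UMIs are counted at 3′ ends and levels were not compared between genes. Full values were given for members of at least 100 UMIs called in any pair, the 4 with most UMIs of the S-phase and mitotic lists, and the D cyclins. In the other lists they were given for the 4 highest and 4 lowest ratios of ENR+CD to ENR among genes of at least 100 UMIs, and for CDK inhibitors of at least 20 UMIs. The members and lists were chosen with earlier results of these data known. Python 3.11.15, numpy 2.4.6, scipy 1.17.1, pandas 2.3.3 and matplotlib 3.10.9 were used.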

Additional observations from a re-analysis of the deposited data

Results flagged for a closer look

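The cells of 8000 or more UMIs, which the comparisons leave out, held the members at a level above the limit that a count of 0 allows. In the 82 such ENR cells the S-phase members summed to 1472 CPM (1400 to 1548) and the mitotic members to 3117 (3011 to 3226), beside 1478 and 2295 in the kept cells. In the 77 ENR+CD cells they summed to 1025 (964 to 1089) and 1982 (1897 to 2070), beside 835 and 1099. In the 101 ENR+CV cells they summed to 1721 (1645 to 1799) and 2749 (2654 to 2847), beside 1653 and 2425. The mitotic members were thus higher in these deep cells than in the kept cells of each library, and the part of doublets was not tested.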

How the results depend on the processing

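The lower S-phase and mitotic sums of ENR+CD against ENR kept their direction under every alternative run. With totals outside the Defa genes the ratios were 0.613 and 0.520, outside the mitochondrial genes 0.516 and 0.438, with the median of members 0.533 and 0.461, and without Pcna and Top2a the S-phase ratio was 0.527. With no filter on cells the mitotic ratio was 0.516. Members called lower in that comparison numbered 16 to 30 under the other scalings, cell filters and minimums, where 6.19% to 12.2% of all genes were called, and 34 at a fold of 1.5, where 17.0% of all genes were called. The sums of ENR+CV against ENR reversed to 0.972 (S-phase) and 0.918 (mitotic) outside the mitochondrial genes and to 0.867 and 0.819 with the median of ratios. They were 1.05 and 1.02 after thinning, 1.19 and 1.01 without Pcna and Top2a, and 1.16 and 1.12 as the median of members. Members called lower in ENR+CV were 1 with the median of ratios (9.18% of all genes) and 1 at a fold of 1.5 (7.83%), and those called higher 2 after thinning (13.3%) and 6 at a fold of 1.5 (28.7%). The S-phase UMIs per mitotic UMI relative to ENR were 1.11 in ENR+CD and 1.18 in ENR+CV without Pcna and Top2a. The Defa-rich to Defa-poor ratios of ENR+CD were 0.358 and 0.266 per all UMIs and 0.848 and 0.701 with predicted defensins. With the other Paneth markers also left out of the total, an alternative chosen after seeing the data, they were 0.558 and 0.415. Without thinning, the shares of cells were 59.6%, 37.2% and 69.5% (S-phase) and 73.4%, 40.9% and 68.4% (mitotic) in ENR, ENR+CD and ENR+CV. The cause of these shifts was not tested. Of 92 alternative values, 57 stayed within the interval of the value reported or within 1.5 times the count. No paired analysis was possible because each condition is 1 library.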

Other observations

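Transcripts of Lgr5, the receptor that marks intestinal stem cells, were also found in cells with the transcripts of other types, so cells with a Lgr5 UMI are not read as stem cells here. After thinning, a Lgr5 UMI was found in 246 cells of ENR, 182 of ENR+CD and 115 of ENR+CV, which are 9.67% (8.55 to 10.9), 7.64% (6.60 to 8.78) and 11.7% (9.74 to 13.8) of all cells, at median depths of 1553, 1543 and 2499 UMIs before thinning. Enteroendocrine-gene cells had one in 5.26% (1.45 to 12.9) of ENR and 6.04% (3.06 to 10.6) of ENR+CD, and Defa-rich cells in 6.25% (1.73 to 15.2) and 3.85% (1.94 to 6.78), at median depths of 1605 to 1852.5 UMIs. These intervals overlap those of all cells of the same library, but all cells include the classes themselves. Against cells of a Defa share under 1%, the share in Defa-rich cells was lower in ENR+CD. It was 3.85% (1.94 to 6.78) beside 10.3% (7.09 to 14.4), with separate intervals. In ENR the intervals of Defa-rich cells (6.25%) and cells under 1% (10.2%) overlapped. For the enteroendocrine-gene cells, a share lower than that of all cells was not detectable at this depth. The S-phase level of the cells with a Lgr5 UMI was 1.08 times (0.996 to 1.16), 1.02 times (0.898 to 1.15) and 0.998 times (0.906 to 1.10) that of cells without one, and their mitotic level 1.11 times (1.04 to 1.18), 1.04 times (0.938 to 1.16) and 0.956 times (0.882 to 1.04). Among cells with a Lgr5 UMI, ENR+CD was 1.86-fold (1.62 to 2.14) below ENR in S-phase and 2.20-fold (1.96 to 2.48) in mitotic members, beside 1.77-fold and 2.09-fold over all cells.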
